A study of Mus musculus with 11 samples.

Results

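Gcg, Pyy, Nts and Insl5 are the genes of 4 peptide hormones of the gut lining, and they were followed across all 11 libraries of RNA from sorted cells of the mouse duodenum. They were chosen by name, as 4 of the 38283 genes of the deposited count table, and all 4 were among the 14332 genes with enough counts to be tested. The cells came from mice of the strains Neurod1-cre-eYFP and GluVenus, which were kept on standard chow, with no age, sex or treatment given in the labels. Epithelial cells of the duodenum were dispersed and sorted on the reporter into a positive gate and a negative gate of about the same number of cells. From the first strain there were 3 libraries of positive and 3 of negative cells, named NeuroD1 here, and from the second 3 of positive and 2 of negative cells, named Glu. Each was made from 2 ng of total RNA.

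Neurod1 is a transcription factor of enteroendocrine cells, and a Cre-driven reporter stays on in the descendants of cells in which the Cre was active, whatever they express later. The Venus of the GluVenus strain is driven by regulatory sequence of the proglucagon gene Gcg, so Gcg checks that sort and is no independent finding in it. In the same way Neurod1, after which the Cre is named, checks the NeuroD1 sort. Values of single libraries are listed in 1 order throughout. It is NeuroD1_positive_6360, NeuroD1_positive_6361 and NeuroD1_positive_6362, then NeuroD1_negative_6360, NeuroD1_negative_6361 and NeuroD1_negative_6362, then Glu_positive_5254, Glu_positive_5160 and Glu_positive_4665, and last Glu_negative_5254 and Glu_negative_4665. Whether a number stands for 1 animal is not stated, so the p-values speak of the spread between these libraries, which may be technical.

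Enteroendocrine cells release peptide hormones into the blood when nutrients reach the gut. Proglucagon, the product of Gcg, is cut in L cells by the convertase made from Pcsk1 into the glucagon-like peptides, which raise insulin secretion and maintain the mucosa. Peptide YY, from Pyy, is made in many of the same cells and lowers appetite and gut motility, and neurotensin, from Nts, was first assigned to a separate N cell of the distal small intestine. Insulin-like peptide 5, from Insl5, belongs to the relaxin family and in the mouse is best known from L cells of the colon. In the duodenum L cells are fewer than in the ileum and colon.

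The start regions of the 4 genes are shown because the genes did not share a pattern across the gates. Sequences are RefSeq's windows of 250 bases before a start on GRCm38.p6, all on the minus strand, less any bases that lie inside the gene as GENCODE vM21 annotates it. Capitals mark 2 motifs searched on both strands, the TATA-box-like TATANA and the E-box CANNTG, which basic helix-loop-helix factors such as Neurod1 can bind.
Gcg, chr2:62483654-62483903: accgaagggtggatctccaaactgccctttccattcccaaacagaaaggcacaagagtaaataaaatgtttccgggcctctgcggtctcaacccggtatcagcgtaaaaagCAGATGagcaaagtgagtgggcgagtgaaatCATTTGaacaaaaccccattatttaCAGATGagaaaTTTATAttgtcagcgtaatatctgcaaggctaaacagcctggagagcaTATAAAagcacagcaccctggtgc
Pyy, chr11:102107833-102108082: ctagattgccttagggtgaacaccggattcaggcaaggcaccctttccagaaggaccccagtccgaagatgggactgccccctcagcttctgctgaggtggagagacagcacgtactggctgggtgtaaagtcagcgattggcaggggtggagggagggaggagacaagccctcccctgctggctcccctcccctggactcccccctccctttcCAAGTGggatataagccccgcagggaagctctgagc
Nts, chr10:102490487-102490668: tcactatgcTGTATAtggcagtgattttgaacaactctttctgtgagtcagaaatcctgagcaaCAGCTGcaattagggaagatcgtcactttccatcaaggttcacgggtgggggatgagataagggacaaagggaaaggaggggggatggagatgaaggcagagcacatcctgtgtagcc
Insl5, chr4:103026843-103026978: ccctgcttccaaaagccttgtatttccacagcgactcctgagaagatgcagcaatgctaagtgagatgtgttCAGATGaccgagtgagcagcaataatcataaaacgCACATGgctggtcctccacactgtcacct
The full windows held 2 matches to TATANA for Gcg, 0 for Pyy, 3 for Nts and 1 for Insl5, and matches that overlap were each counted. CANNTG matched 3 times for Gcg, 1 time each for Pyy and Nts, and 2 times for Insl5. Of the windows of the same length at all 32851 RefSeq starts, 22.6% held TATANA and 66.2% held CANNTG, so a CANNTG match is common. The Nts and Insl5 windows reach 68 and 114 bases into the GENCODE gene, where 2 of the Nts matches and the Insl5 match to TATANA lie, and those bases are not shown. A match describes the letters only, and the 0 for Pyy holds for the exact pattern. Near its end the Pyy window reads tataag, which departs from TATANA in the last base.

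The genes themselves lie on 4 chromosomes of GRCm38, all on the minus strand, and none overlaps another annotated gene. Gcg (ENSMUSG00000000394) spans chr2:62474530-62483650 with 1494 bases of exon. Pyy (ENSMUSG00000017311) spans chr11:102106676-102107832 with 631 bases of exon. Nts (ENSMUSG00000019890) spans chr10:102481756-102490486 with 1248 bases of exon. Insl5 (ENSMUSG00000066090) spans chr4:103017872-103026842 with 724 bases of exon.

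Libraries held 2279595 to 5722381 counts, and replicates of every group differed by more than sampling noise. Both ribosomal RNA genes of the mitochondrion, mt-Rnr1 and mt-Rnr2, stand at 0 in all 5 Glu libraries and in NeuroD1_negative_6360. In the 3 NeuroD1 positive libraries mt-Rnr1 took 11.4% to 12.1% and mt-Rnr2 15.5% to 17.9% of all counts. In NeuroD1_negative_6361 and NeuroD1_negative_6362 mt-Rnr1 took 33.0% and 33.9%, and mt-Rnr2 stood at 0, so mt-Rnr2 has counts in the NeuroD1 positive group alone. Leaving both genes out of the fit changed no call of a hormone gene. Levels are given as CPM, counts relative to a library size scaled by TMM factors. The summed level of 6 enteroendocrine markers was 39627 to 58165 CPM in NeuroD1 positive and 1879 to 2229 CPM in NeuroD1 negative libraries. It was 8816 to 26148 CPM in Glu positive and 868 to 1059 CPM in Glu negative libraries. The insulin gene Ins2 and the enteric neuron and glia genes Hand2 and Sox10 had 0 counts in every library, and 4 islet markers together reached at most 1.70 CPM.

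Gcg, Pyy and Nts were higher in the positive gate of both strains, and Insl5 was not called in either. Gcg had the largest difference of the 4, close to that of Nts, and Pyy a smaller one. Of the 4 genes, 3 were called higher in NeuroD1 positive cells, where 6.57% of all genes tested were called higher. Likewise 3 of 4 were called higher in Glu positive cells, against 4.22% of all genes tested. That count includes Gcg, which only checks the Glu sort. In bulk RNA, fewer cells of a type and less RNA per cell cannot be told apart. Whether groups overlap is given below as a description only, since the share of all genes without overlap was not counted.

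**Figure D1:**
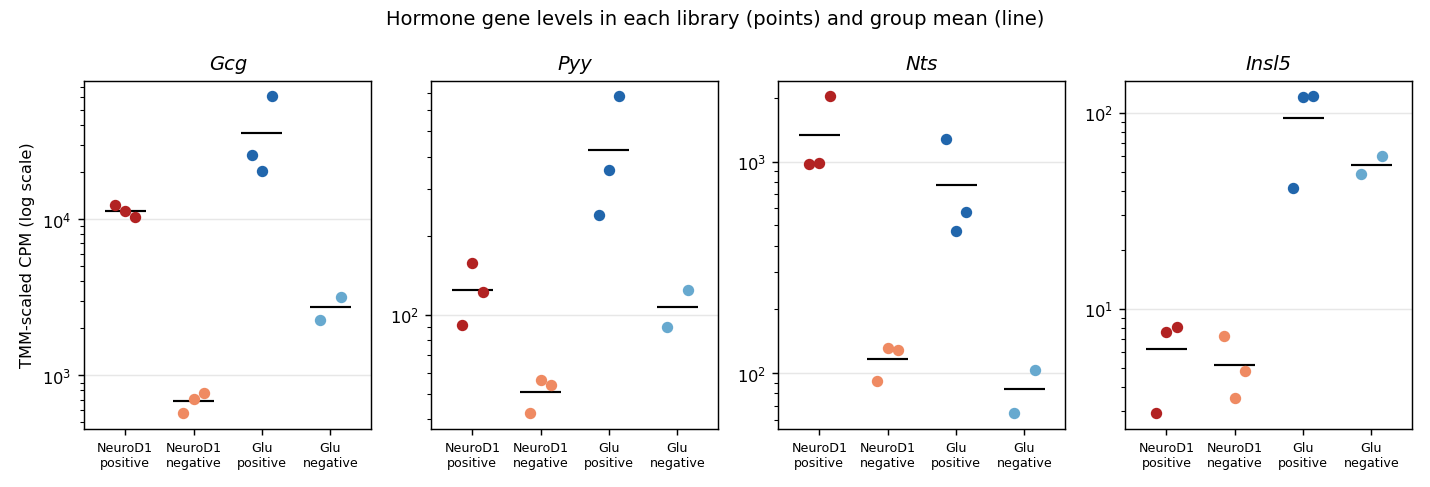
Level of each hormone gene in every library, in TMM-scaled CPM on a log axis, with 1 panel per gene, 1 point per library and a line at each group's mean. The positive gate lies above the negative gate without overlap for Gcg, Pyy and Nts in both strains, while the Insl5 points of the 2 gates overlap and the Glu libraries all lie above the NeuroD1 libraries.

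Gcg had 12239, 11293 and 10371 CPM in the NeuroD1 positive libraries, against 575, 703 and 767 CPM in the NeuroD1 negative libraries. The positive libraries lay close together and far above the negative ones. The log2 fold change was 4.05 ± 0.43 (SE; edgeR's quasi-likelihood test, adjusted p = 5.14e-06), a 16.6-fold difference, and 1.48% of the genes tested had a larger one. In the Glu positive libraries Gcg had 60981, 20200 and 25873 CPM, against 3166 and 2272 CPM in the Glu negative libraries. Glu_positive_5254 stood well above the other Glu positive libraries, and the gates did not overlap. The difference was 3.71 ± 0.50 (edgeR, adjusted p = 0.000171), or 13.1-fold.

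Nts followed Gcg in the size of its difference between the gates. It had 972, 980 and 2035 CPM in the NeuroD1 positive libraries, against 91.6, 131 and 128 CPM in the NeuroD1 negative ones. NeuroD1_positive_6362 had about as much Nts as the other positive libraries together. The log2 fold change was 3.51 ± 0.43 (edgeR, adjusted p = 2.77e-05). In the Glu positive libraries it had 576, 469 and 1273 CPM, against 103 and 64.7 CPM in the Glu negative libraries. The Glu positive library with the most Nts, Glu_positive_4665, was not the one with the most Gcg. The difference was 3.20 ± 0.51 (edgeR, adjusted p = 0.000776).

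Pyy was a less abundant transcript with a smaller difference between the gates. It had 91.4, 158 and 122 CPM in the NeuroD1 positive libraries, against 42.3, 56.2 and 54.1 CPM in the NeuroD1 negative ones. The gates did not overlap, and the log2 fold change was 1.29 ± 0.38 (edgeR, adjusted p = 0.0273). In the Glu positive libraries Pyy had 678, 356 and 240.0 CPM, against 125 and 90.2 CPM in the Glu negative libraries. These gates did not overlap either, and the difference was 1.98 ± 0.44 (edgeR, adjusted p = 0.0111). The NeuroD1 call was lost without NeuroD1_positive_6361 (1.08, adjusted p = 0.109), NeuroD1_positive_6362 (1.30, adjusted p = 0.0669), NeuroD1_negative_6360 (1.16, adjusted p = 0.127), NeuroD1_negative_6361 (1.38, adjusted p = 0.0531) or NeuroD1_negative_6362 (1.34, adjusted p = 0.0702), and also with library totals (1.00, adjusted p = 0.0662) and limma voom (1.31, adjusted p = 0.0846). The Glu call was lost without Glu_negative_5254 (2.22, adjusted p = 0.0730) or Glu_negative_4665 (1.75, adjusted p = 0.166), and in a fit of the Glu groups alone (1.94, adjusted p = 0.0682).

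Insl5 set itself apart by strain, not by gate. It had 2.94, 7.63 and 8.05 CPM in the NeuroD1 positive libraries, on 8, 20 and 38 counts, against 7.23, 3.51 and 4.80 CPM in the NeuroD1 negative ones, on 41, 7 and 11 counts. The gates overlapped, with the lowest value in a positive library. The log2 fold change was 0.23 ± 0.54 (edgeR, adjusted p = 0.853), with a 95% interval from -0.82 to 1.28, and it was -0.16 with library totals and -0.01 without NeuroD1_positive_6362. In the Glu positive libraries Insl5 had 121, 120 and 41.2 CPM, against 60.1 and 48.6 CPM in the Glu negative libraries. Glu_positive_4665 lay below both negative ones. The difference was 0.79 ± 0.55 (edgeR, adjusted p = 0.411), with a 95% interval from -0.29 to 1.87.

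**Figure D2:**
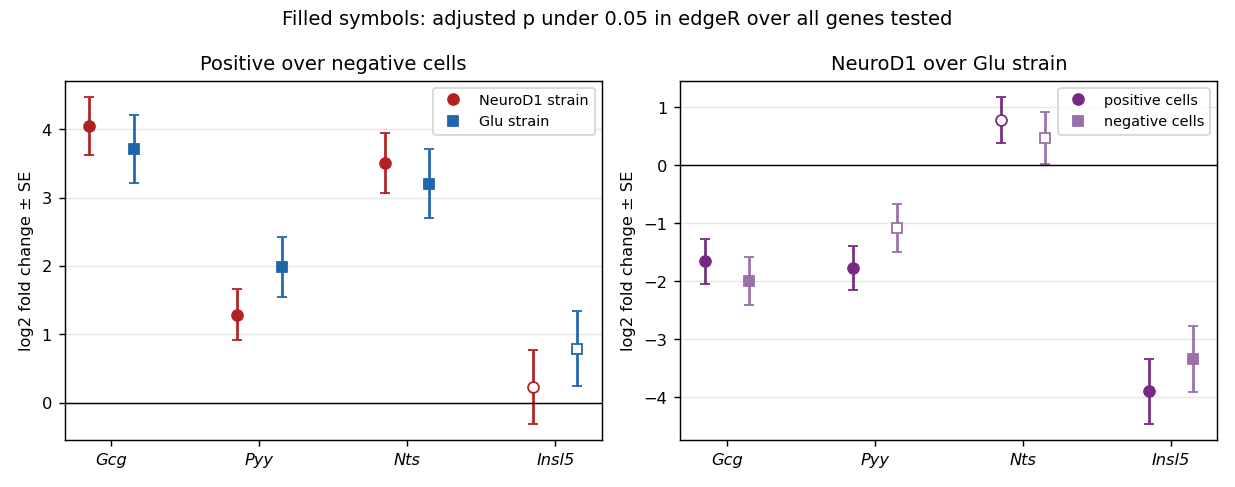
Log2 fold change ± SE of the 4 genes from the edgeR fit, positive over negative gate in each strain (left) and NeuroD1 over Glu in each gate (right), with filled points at an adjusted p under 0.05. Gcg and Nts lie near each other on the left, from 3.20 to 4.05, and Insl5 lies lowest on the right, at -3.90 and -3.34.

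The difference between the gates was then compared between the strains. The NeuroD1 difference minus the Glu difference was 0.34 ± 0.56 for Gcg (adjusted p = 0.875) and -0.70 ± 0.56 for Pyy (edgeR, adjusted p = 0.681). It was 0.31 ± 0.59 for Nts (adjusted p = 0.891) and -0.56 ± 0.77 for Insl5 (edgeR, adjusted p = 0.834). None of the 4 passed in edgeR, none had an unadjusted p under 0.05, and 0 passed with DESeq2 or limma voom. Of all genes tested, 0.112% passed. The intervals were wide, from -0.77 to 1.44 for Gcg and from -2.06 to 0.94 for Insl5, and the Nts value turned to -0.14 without NeuroD1_positive_6362 and to -0.09 without Glu_negative_5254.

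What remained in the negative gate differed from gene to gene. The mean level in the NeuroD1 negative cells was 6.03% of that in the positive cells for Gcg, 8.79% for Nts, 41.1% for Pyy and 83.5% for Insl5. In the Glu strain the shares were 7.62% for Gcg, 10.9% for Nts, 25.3% for Pyy and 57.8% for Insl5. The shares of enteroendocrine marker genes lay below those of Pyy and Insl5 in both strains. They were 8.73% and 4.80% for Neurod1, 5.19% and 8.68% for the convertase gene Pcsk1, and 2.35% and 4.89% for the granin gene Scg2, in the NeuroD1 and the Glu strain in that order. Over all 6 such markers the shares ran from 2.35% to 8.84% in the NeuroD1 strain and from 4.80% to 16.7% in the Glu strain, where the granin gene Chga had the highest.

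**Figure D3:**
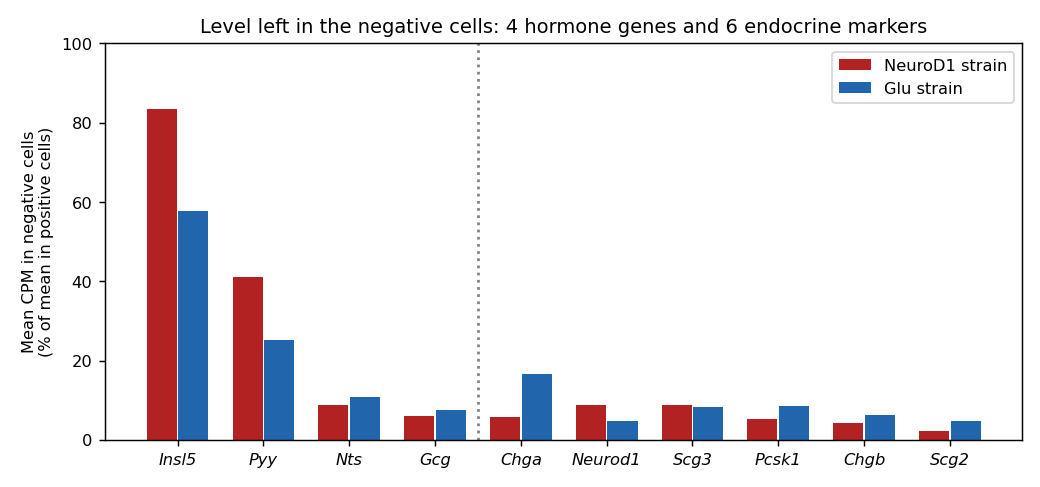
Mean level in the negative gate as a percent of the mean in the positive gate, for the 4 hormone genes and 6 enteroendocrine markers in each strain, with bars drawn from 0 and no error shown. The bars of Insl5 (83.5% and 57.8%) and Pyy (41.1% and 25.3%) stand above those of the other genes, which reach at most 16.7%.

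Summed markers of other cell types also differed between the gates, not all in 1 direction. For 9 immune markers the sum was 700.0 to 1552 CPM in NeuroD1 positive and 17483 to 38263 CPM in NeuroD1 negative libraries, and 1480 to 5115 CPM in Glu positive and 13563 to 91027 CPM in Glu negative libraries. Most of it in the negative gates was Igha, with means of 26688 CPM in NeuroD1 and 49299 CPM in Glu. All 9 were called lower in NeuroD1 positive and 6 in Glu positive cells, against 7.61% and 2.41% of all genes tested. Not called in Glu were Ptprc (-0.42, adjusted p = 0.747), Cd3e (-0.53, adjusted p = 0.730) and Nkg7 (-2.77; edgeR, adjusted p = 0.0561). For 5 goblet cell markers the sum was 344 to 549 CPM in NeuroD1 positive and 2196 to 3131 CPM in NeuroD1 negative libraries, and 870 to 2511 CPM in Glu positive and 3073 to 3996 CPM in Glu negative libraries. For 6 Paneth cell markers the sum was 124 to 259 CPM in NeuroD1 positive and 560 to 2743 CPM in NeuroD1 negative libraries. All 6 were called lower in the NeuroD1 positive cells, against 7.61% of all genes tested. In the Glu strain the Paneth sums overlapped, at 155 to 498 CPM in positive and 397 to 1616 CPM in negative libraries, and the smallest adjusted p of the 6 genes was 0.0617 in edgeR, for Lyz1. For 8 enterocyte markers the sum was 2315 to 3142 CPM in NeuroD1 positive and 3164 to 9774 CPM in NeuroD1 negative libraries. It was 3261 to 3948 CPM in Glu positive and 2315 to 3003 CPM in Glu negative libraries. Most of the Glu positive sum was Sis, with 2926 ± 568 CPM in Glu positive and 715 ± 257 CPM in Glu negative cells (2.03; edgeR, adjusted p = 0.0119). In Glu positive cells 4 of the 8 were called lower and 1, Sis, higher, against 2.41% and 4.22% of all genes tested. Their median log2 fold change in Glu was -1.54. In NeuroD1 positive cells 7 of the 8 were called lower, against 7.61% of all genes tested, and the median was -3.67. Most of the NeuroD1 positive sum was Sis, which was not called there (0.47; edgeR, adjusted p = 0.487). Sis had 2421 ± 331 CPM in NeuroD1 positive and 1748 ± 1059 CPM in NeuroD1 negative cells. Tuft cell and stromal markers were lower in the positive gate without overlap in NeuroD1, and their sums overlapped in Glu. Their part in the Pyy and Insl5 results was not tested.

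Ratios of the hormone genes within a library do not depend on scaling, and they were compared per base of exon. Glu cells were sorted on a Gcg-driven reporter, so the Glu part of any ratio to Gcg is not independent of that sort. The mix of the 4 transcripts differed between the gates, with Pyy and Insl5 lower relative to Gcg and Nts in the positive cells. Of the summed level of the 4 genes per kilobase of exon, Gcg made up 85.6% ± 5.72 in NeuroD1 positive and 71.6% ± 1.14 in NeuroD1 negative cells (SD, n = 3 each). It made up 93.6% ± 2.11 in Glu positive cells (n = 3) and 85.3% ± 0.036 in Glu negative cells (SD, n = 2). The Pyy share was 2.24% ± 0.66 in NeuroD1 positive and 12.6% ± 0.61 in NeuroD1 negative cells. It was 2.80% ± 0.95 in Glu positive and 7.99% ± 0.043 in Glu negative cells.

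Counts of Gcg per base of exon exceeded those of Pyy by a geometric mean of 39.3 to 1 in NeuroD1 positive and 5.65 to 1 in NeuroD1 negative cells. In the Glu strain the ratio was 34.6 to 1 in positive and 10.7 to 1 in negative cells. No positive library overlapped a negative one, with 23.9 as the lowest positive and 10.7 as the highest negative value over both strains. The log2 ratio of Pyy to Gcg was lower in the positive gate by a mean of -2.25 over the strains (two-sided exact permutation test within strain, p = 0.005, the smallest that 200 arrangements allow, adjusted p = 0.01 over 12 ratio comparisons). It was -2.80 in the NeuroD1 and -1.70 in the Glu strain, and a single strain cannot go below p = 0.1 in its exact test.

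Nts kept close to Gcg between the gates. The geometric mean ratio of Gcg to Nts counts per base of exon was 7.55 in NeuroD1 positive and 4.90 in NeuroD1 negative cells. It was 37.8 in Glu positive and 27.3 in Glu negative cells. The gates overlapped in both strains. The difference in the log2 ratio of Nts to Gcg was -0.55 (exact permutation test, p = 0.26, adjusted p = 0.26), which was smaller than the spread among the positive libraries.

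The other ratios shifted between the gates. Insl5 relative to Gcg was lower in the positive gate by a log2 difference of -3.40 (exact permutation test, p = 0.005, adjusted p = 0.01), and relative to Nts by -2.86 (exact permutation test, p = 0.01, adjusted p = 0.0133). Relative to Pyy it was lower by -1.15 (exact permutation test, p = 0.015, adjusted p = 0.018). Nts relative to Pyy was higher in the positive gate by 1.70 (exact permutation test, p = 0.01, adjusted p = 0.0133), a call that was lost without either Glu negative library (1.65 without Glu_negative_4665 and 1.75 without Glu_negative_5254, adjusted p = 0.075 for each). Both strains gave the same sign for all 6 ratios.

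**Figure D4:**
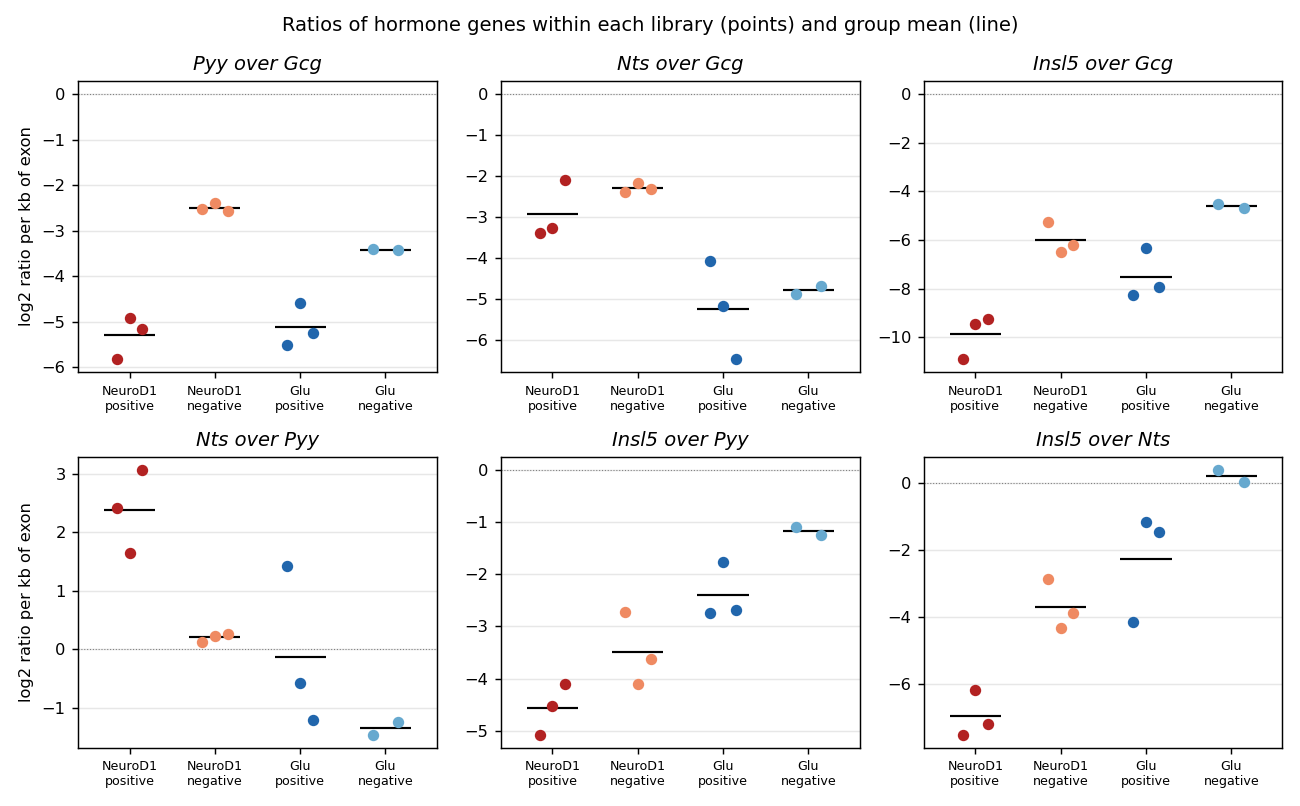
Log2 ratio of each pair of hormone genes per kilobase of exon in every library, with 1 panel per ratio and a line at each group's mean. Pyy/Gcg separates the gates in both strains, Nts/Gcg separates the strains more than the gates, and Insl5/Nts differs by both.

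Between the strains the hormone genes moved apart. In the positive gates Gcg, Pyy and Insl5 were lower in NeuroD1 than in Glu cells and Nts was not called. Of the 4 genes 3 were called lower, against 4.95% of all genes tested. That count includes Gcg, whose level in Glu positive cells is not independent of the sort on a Gcg-driven reporter. The order of the group means was Glu positive, NeuroD1 positive, Glu negative and NeuroD1 negative for both Gcg and Pyy, and for Pyy the middle groups overlapped. For Nts the NeuroD1 positive and Glu positive groups overlapped, as did the NeuroD1 negative and Glu negative groups.

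The log2 fold change of NeuroD1 over Glu positive cells was -1.66 ± 0.39 for Gcg (edgeR, adjusted p = 0.0121), with means of 11301 ± 934 CPM in NeuroD1 positive and 35685 ± 22090 CPM in Glu positive cells (SD, n = 3 each). That call was lost without any 1 of NeuroD1_positive_6360 (-1.72, adjusted p = 0.0550), NeuroD1_positive_6361 (-1.65, adjusted p = 0.0586) and NeuroD1_positive_6362 (-1.59, adjusted p = 0.0654), and without Glu_positive_5254 (-1.03, adjusted p = 0.0674). Pyy differed by -1.78 ± 0.38 (edgeR, adjusted p = 0.00699), with 124 ± 33.3 CPM in NeuroD1 positive and 425 ± 227 CPM in Glu positive cells, and lost the call without NeuroD1_positive_6360 (-1.59, adjusted p = 0.0510). Nts differed by 0.78 ± 0.39 (edgeR, adjusted p = 0.229), with 1329 ± 612 CPM in NeuroD1 positive and 773 ± 436 CPM in Glu positive cells, and passed without Glu_positive_4665 (1.35, adjusted p = 0.0288). The 2 strains were sorted on different reporters, and since all Glu libraries also list mt-Rnr1 and mt-Rnr2 at 0, strain and that difference cannot be told apart.

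Insl5 gave the largest strain difference of the 4 genes in both gates. It averaged 6.21 ± 2.84 CPM in NeuroD1 positive and 94.1 ± 45.9 CPM in Glu positive cells (SD, n = 3 each), a log2 fold change of -3.90 ± 0.55 (edgeR, adjusted p = 0.000267). In the negative gates it averaged 5.18 ± 1.88 CPM in NeuroD1 (n = 3) and 54.4 ± 8.16 CPM in Glu (n = 2) cells, a log2 fold change of -3.34 ± 0.57 (edgeR, adjusted p = 0.00686). Every Glu library, negative ones included, lay above every NeuroD1 library, with 41.2 CPM as the lowest Glu and 8.05 CPM as the highest NeuroD1 value. NeuroD1_negative_6360, which shares the values of 0 for mt-Rnr1 and mt-Rnr2 with the Glu libraries, had 7.23 CPM. The call between the negative gates was lost without NeuroD1_negative_6362 (-3.28, adjusted p = 0.0561), without Glu_negative_5254 (-3.20, adjusted p = 0.0742) and with limma voom (-3.28, adjusted p = 0.0503).

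In the negative gates 2 of the 4 genes were called lower in NeuroD1 cells, Insl5 and Gcg, against 0.126% of all genes tested. The Gcg level in Glu negative cells, too, is not independent of the Glu sort. Gcg averaged 682 ± 98.0 CPM in NeuroD1 negative and 2719 ± 633 CPM in Glu negative cells, a log2 fold change of -1.995 ± 0.42 (edgeR, adjusted p = 0.0321). It was lost without any 1 of the 6 NeuroD1 libraries or of Glu_negative_5254, at adjusted p of 0.0597 to 0.242 with values of -2.09 to -1.76, and with RLE size factors (-1.99, adjusted p = 0.0608). Pyy differed by -1.08 ± 0.41 (edgeR, adjusted p = 0.393) and Nts by 0.47 ± 0.45 (edgeR, adjusted p = 0.863), and neither was called.

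Relative to Gcg, Nts was higher in NeuroD1 cells and Insl5 lower, in both gates. These ratios to Gcg, too, are not independent of the Glu sort on a Gcg-driven reporter. The log2 ratio of Nts to Gcg was higher by 2.40 in NeuroD1 cells (exact permutation test within gate, p = 0.005, adjusted p = 0.01), by 2.32 in the positive and 2.48 in the negative gate. Insl5 relative to Gcg was lower by -1.88 (exact permutation test, p = 0.01, adjusted p = 0.0133) and relative to Nts by -4.28 (exact permutation test, p = 0.005, adjusted p = 0.01). The ratio of Pyy to Gcg differed by 0.37 (exact permutation test, p = 0.21, adjusted p = 0.229), with -0.19 in the positive and 0.92 in the negative gate. In Glu negative cells Insl5 reached 75.1 CPM per kilobase of exon beside 67.4 for Nts, whereas in NeuroD1 positive cells Insl5 had 8.57 beside 1065 for Nts.

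Genes that make, sense and regulate these hormones were counted in the same comparisons. Of 12 transcription factors of L cells and their precursors, 10 were called higher in NeuroD1 positive and 8 in Glu positive cells, and none lower. Their median log2 fold change was 3.07 in NeuroD1 and 3.21 in Glu, against 0.02 and 0.12 over all genes tested. Over all genes tested, 6.57% were called higher and 7.61% lower in NeuroD1 positive cells, and 4.22% higher and 2.41% lower in Glu positive cells. Neurod1 (3.52), Nkx2-2 (3.52) and Insm1 (3.51), all factors of endocrine cell formation, rose in NeuroD1 positive cells on the log2 scale. Neurod1 there checks the sort and is no independent finding. In Glu positive cells Neurod1 (4.38), Etv1 (4.09), Pax6 (3.99) and Insm1 led.

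Of 10 genes of hormone processing and clearance, 5 rose and 1 fell in NeuroD1 positive cells, and 6 rose in Glu positive cells. Over all genes tested 6.57% were called higher and 7.61% lower in NeuroD1, and 4.22% higher in Glu. The median log2 fold change of the 10 genes was 1.81 in NeuroD1 and 2.15 in Glu. Pcsk1, the convertase that cuts proglucagon into glucagon-like peptides, rose to 390 ± 58.1 CPM in NeuroD1 positive cells, against 20.2 ± 5.11 CPM in NeuroD1 negative cells. It rose to 245 ± 73.8 CPM in Glu positive cells, against 21.3 ± 6.15 CPM in Glu negative cells. Cpe, which trims the ends of peptides, rose by 3.77 in NeuroD1 and 3.80 in Glu cells on the log2 scale. Scg5, a chaperone of the convertase made from Pcsk2, rose by 3.45 and 3.65. Mme, the peptidase neprilysin, fell by 3.97 in NeuroD1 positive cells. Pcsk2, which makes glucagon in the islet and was picked after its values were seen, had 38.0 ± 18.1 CPM in NeuroD1 positive and 31.9 ± 2.98 CPM in NeuroD1 negative cells. It had 1.91 ± 0.81 CPM in Glu positive and 0.91 ± 1.29 CPM in Glu negative cells, and passed in neither strain (edgeR, adjusted p = 0.865 and 0.591).

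The receptors of the 4 hormones were mostly too low to test, with 3 of 11 passing the filter. Of these 3, 1 was called higher in NeuroD1 positive cells, against 6.57% of all genes tested. In Glu the adjusted p of the 3 ran from 0.0516 to 0.901 in edgeR. Glp1r, the receptor of glucagon-like peptide 1, had 65.6 ± 25.7 CPM in NeuroD1 positive and 4.87 ± 2.15 CPM in NeuroD1 negative cells (SD, n = 3 each). The log2 fold change was 3.70 ± 0.73 (edgeR, adjusted p = 0.00198). In the Glu strain it had 1.87 ± 1.88 CPM in positive and 10.99 ± 8.03 CPM in negative cells, a log2 fold change of -2.64 that missed the threshold (edgeR, adjusted p = 0.0516, and 0.00492 to 0.460 over the alternatives). Both neurotensin receptor genes, Ntsr1 and Ntsr2, had 0 counts in all 11 libraries, which allows up to 3 counts each, and Rxfp4, the receptor of insulin-like peptide 5, had 5 counts in all.

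Of 7 nutrient and bile acid sensors known from L cells, 5 rose in NeuroD1 positive and 3 in Glu positive cells, against 6.57% and 4.22% of all genes tested. Their median log2 fold change was 2.93 in NeuroD1 and 2.46 in Glu. The short-chain fatty acid receptor Ffar3 had 15.5 ± 7.51 CPM in NeuroD1 positive and 0.55 ± 0.68 CPM in NeuroD1 negative cells. The log2 fold change in NeuroD1 was 4.79 ± 0.98, with 5 counts in all behind the negative value. The calcium-sensing receptor Casr (3.34) and Ffar2 (2.93), a second short-chain fatty acid receptor, also rose there. Ffar3 (2.38; edgeR, adjusted p = 0.124) was not called in Glu cells, where the fatty acid receptor Ffar1 (5.01), Casr (4.16) and Gpr119 (3.50) passed. Each of those Glu calls was lost without at least 1 of the Glu negative libraries. Without Glu_negative_4665 the adjusted p in edgeR was 0.164 for Ffar1, 0.110 for Casr and 0.0682 for Gpr119. Without Glu_negative_5254 it was 0.177 for Ffar1 and 0.161 for Casr, and without Glu_positive_5254 Ffar1 stood at 2.62 (adjusted p = 0.121). Casr stood at 2.25 without Glu_positive_4665 (edgeR, adjusted p = 0.0387) and missed the threshold in the Glu groups alone (4.12, adjusted p = 0.0897). With limma voom both missed it, Casr at 3.64 (adjusted p = 0.0732) and Ffar1 at 3.58 (adjusted p = 0.112). Among 17 related precursor genes, of which 7 were tested, 2 rose in each strain, against 6.57% of all genes tested in NeuroD1 and 4.22% in Glu. The medians were -0.03 in NeuroD1 and 1.75 in Glu. Sct, the secretin gene, rose by 5.39 in NeuroD1 and 4.19 in Glu cells.

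Each hormone gene was also set beside the genes with the nearest profile over the 11 libraries, measured as the mean absolute distance of log2 CPM after each gene was centred on its own mean. This is a description of libraries that share their gates. Nearest to Gcg were Insm1 (0.35), an endocrine transcription factor, and Gfra3 (0.42), a receptor subunit for artemin. Insm1 averaged 107 and 9.23 CPM in NeuroD1 positive and negative cells and 281 and 17.6 CPM in Glu positive and negative cells. The 5 genes nearest to Nts had distances of 0.29 to 0.34, and they included Bambi, a decoy receptor of the transforming growth factor beta family, and Peg3, an imprinted zinc finger gene. Peg3 averaged 1481 and 140 CPM in NeuroD1 positive and negative cells and 1024 and 81.7 CPM in Glu positive and negative cells.

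Nearest to Pyy was Plscr1 (0.25), a phospholipid scramblase, with 16.6 and 8.97 CPM in NeuroD1 positive and negative cells and 69.2 and 12.2 CPM in Glu positive and negative cells. The genes nearest to Insl5 lay farther away, at 0.61 to 0.69, and all had lower means in NeuroD1 than in Glu cells in both gates. They were Thbs4, a matrix protein gene, Sycn, a gene of zymogen granules, Car1, a carbonic anhydrase of the colon, Fabp6, the ileal bile acid binding protein, and Ctcfl, a germline paralog of the insulator factor Ctcf. Car1 averaged 24.5 and 27.3 CPM in NeuroD1 positive and negative cells and 159 and 107 CPM in Glu positive and negative cells. Fabp6 averaged 7.81 and 40.0 CPM in NeuroD1 positive and negative cells and 164 and 103 CPM in Glu positive and negative cells. Among the 4 hormone genes the distance was smallest between Pyy and Insl5 (1.08) and largest between Nts and Insl5 (2.21). Ranks among all 13041 genes compared gave another order. Insl5 stood at rank 5410 among the neighbours of Pyy, so that pair was not close. Pyy stood at 273, Nts at 343 and Insl5 at 3039 among the neighbours of Gcg.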

How the data were processed

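RNA-seq libraries from sorted duodenal cells were made with an amplifying kit from 2 ng of RNA with a RIN above 7, per the labels' protocols. GRCm38 is the build, and Cufflinks 2.2.1, TopHat2 2.1.0 and CASAVA are the tools, per the submitters' processing notes. How reads were counted, on which annotation and with which strand setting is not given in the sources used here. In the table deposited, values are the authors' estimated counts per gene. They are not whole for 848 genes, none of them a hormone gene studied here, and were rounded. Reads of overlapping or near-identical genes may be shared, and reads amplified with no molecular identifier do not count molecules, so limits from counts cover counting error only.

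Symbols and exon lengths came from GENCODE vM21 (36341 genes matched). Counts were tested with edgeR 4.0.16 under R 4.3.3 (filterByExpr, TMM, quasi-likelihood test, 4 group means over 11 libraries, Benjamini-Hochberg over 14332 genes, threshold 0.05), with SE taken as the log2 fold change over the square root of F. Ratios within a library used a pseudocount of 0.5 count and exact permutation tests over all arrangements. The fit and the ratio test were tested on simulated data.

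The 4 genes and the gene lists were chosen with earlier results of these data known. Text names up to 4 called members of each pathway list by size of change, and the 5 nearest profiles of each hormone gene (by name, all or some). Pcsk2 and, in the Glu strain, Glp1r, Mme and Ffar3 were named after their values were seen. A gene that this rule took is not reported here, and the counts still include it. The alternatives were other scaling factors (RLE, upper quartile, library totals), other filters, DESeq2 1.42.0, limma 3.58.1 voom, the compared groups alone, a replicate block, a pseudocount of 5 for ratios, and the loss of 1 library. A fit with neither mt-Rnr1 nor mt-Rnr2 was chosen after seeing the data.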

Additional observations from a re-analysis of the deposited data

How the results depend on the processing

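Of 408 values for the 4 hormone genes under the alternatives, 377 kept their direction and their side of the threshold, 26 lost the call, 1 gained it and 4 turned sign without a call. Of 174 ratio values 168 were kept, 2 lost the call, 1 turned sign and 3 shifted. For a single strain, a single gate and the replicate block, kept means the same sign and a shift under 1 SD between libraries of a group. The exact tests of these settings cannot pass the threshold, so no call was held there. Of 650 values for named members of the other lists 624 were kept, 18 lost the call, 6 gained it and 2 turned sign. Mme and Ffar3 in Glu are not among them. Pyy in NeuroD1 was 1.00 with library totals and 1.31 with voom, and 1.08 to 1.47 when each library was left out. Insl5 in NeuroD1 was -0.16 with library totals and -0.015 to 0.58 with libraries left out. Pyy in Glu was 1.94 in the compared groups alone and 1.48 to 2.27 with libraries left out. For Nts the NeuroD1 difference minus the Glu difference ranged over -0.14 to 0.87. Between the positive gates Gcg ranged over -1.93 to -1.03, Pyy over -2.06 to -1.27 and Nts over 0.34 to 1.35. Between the negative gates Gcg was -1.99 with RLE and -2.23 to -1.76 with libraries left out, and Insl5 was -3.28 with voom and -3.69 to -3.14. Nts/Pyy between gates ranged over 1.31 to 1.98, Pyy/Gcg between gates was -1.70 in Glu alone and -2.80 in NeuroD1 alone, and Pyy/Gcg between strains was 0.92 in the negative gate alone and -0.19 in the positive gate alone. Pcsk2 in Glu ranged over 0.0025 (without Glu_negative_5254) to 5.80 (without Glu_negative_4665), and in NeuroD1 it turned to -0.066 with library totals and ranged over -0.16 to 0.54 with libraries left out (-0.16 without NeuroD1_positive_6361). The cause was not tested in any of these.

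The numbers of genes called moved more. The Glu comparison had 951 calls, 1551 with no filter, 1542 with DESeq2, 340 in the compared groups alone, 297 without Glu_negative_5254 and 187 without Glu_negative_4665 (187 to 1126 over all libraries). NeuroD1 had 2031 calls, with 1301 without NeuroD1_negative_6360 and 1301 to 2757 over all libraries. The difference of differences had 16, 25 with library totals, 338 with no filter, 175 with DESeq2, 8 with voom, and 5 to 52 with libraries left out. Those past 1.5 times were 9 without NeuroD1_positive_6360, 10 without NeuroD1_negative_6360 or Glu_negative_5254, 5 without Glu_negative_4665, 32 without Glu_positive_5254, 34 without Glu_positive_5160 and 52 without Glu_positive_4665. Between the positive gates there were 1165, 1902 with no filter, 1830 with DESeq2, 646 with voom and 565 in the compared groups alone, and 591 without NeuroD1_positive_6360, 569 without NeuroD1_positive_6361, 631 without NeuroD1_positive_6362 and 2182 without Glu_positive_4665 (569 to 2182 in all). Between the negative gates there were 70, 245 with no filter, 170 with DESeq2 and 123 in the compared groups alone, and 36 without NeuroD1_negative_6362, 133 without Glu_positive_5254, 27 without Glu_negative_5254 and 34 without Glu_negative_4665 (27 to 133 in all).

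With library totals the median over all genes was -0.28 in NeuroD1 (0.02 with TMM), -0.19 in Glu (0.12), -0.51 between the positive gates (-0.14) and -0.39 between the negative gates (-0.01). Calls higher were 941 of 2031 in NeuroD1 and 605 of 951 in Glu, and 634 of 2010 and 360 of 849 with library totals, and 472 of 963 in Glu with upper quartile factors. They were 456 of 1165 between the positive gates, 52 of 70 between the negative gates and 13 of 16 for the difference of differences, and with library totals 283 of 1466, 46 of 84 and 14 of 25. With a replicate block the log2 fold changes were 4.06 for Gcg, 1.26 for Pyy, 3.43 for Nts and 0.18 for Insl5 in NeuroD1, and 3.89, 1.93, 3.39 and 0.39 in Glu, with 1956 and 707 genes called, and no hormone call changed. Libraries of the same number correlated at 0.0098 to 0.046. NeuroD1_positive_6360 and NeuroD1_positive_6362 correlated best with the negative library of their own number. NeuroD1_positive_6361 correlated best with NeuroD1_negative_6362 (0.020, against 0.010 with its own number). With 2 Glu negative libraries the values mirror each other, as 0.040 and -0.040 for Glu_positive_5254. Such small values cannot decide whether the numbers mark pairs, and the block paired libraries by number only. The Glu negative group has 2 libraries, and Insl5 rests on 7 to 41 counts in each NeuroD1 library.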
